A study of Homo sapiens with 13 samples.

Results

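The genes described here code for the subunits of 2 protein families of cell adhesion, the integrins and the laminins, and were taken by a rule on gene symbols. Of the 43836 genes in the count table, 37 are described: 18 integrin alpha subunits, 8 integrin beta subunits and 11 laminin subunits. Their messenger RNA was measured by sequencing in hFOB 1.19 cells, a human fetal osteoblast line immortalized with a temperature-sensitive T antigen, so that every library came from 1 cell line. Osteoblasts make and mineralize the bone matrix.

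The 12 libraries fell into 5 groups. The 2 positive controls were grown in medium with 10% fetal bovine serum (FBS) plus solvent. The 2 negative controls were serum-starved, that is, grown without FBS, plus solvent. The other groups were serum-starved as well and were given 1 µg/mL of a compound: 3 libraries with resveratrol (RES), 3 with peonidin-3-O-glucoside (POG, an anthocyanin, the class of plant pigments) and 2 labelled DEG, an abbreviation that the labels do not spell out. The comparisons ask what serum, and what each compound in the absence of serum, changes in starved osteoblasts. The labels do not say whether libraries of a group came from separate cultures, so the p-values measure the spread between these libraries, which may be technical.

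Each integrin is a pair of 1 alpha and 1 beta subunit that spans the cell membrane, binds matrix proteins outside the cell and connects to the actin skeleton inside through adaptors such as talin and kindlin. ITGB1 pairs with most alpha subunits, and the alpha subunit largely decides the ligand: collagen, laminin, or proteins with an RGD sequence such as fibronectin and vitronectin. Laminins are cross-shaped trimers of 1 alpha, 1 beta and 1 gamma chain that polymerize in basement membranes and are themselves integrin ligands. In bone, integrins anchor osteoblasts to the collagen and fibronectin they deposit.

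Library totals ran from 38464619 to 51416358 counted reads, and the 37 subunits together took 0.600% to 0.649% of the reads. Levels are given as CPM, read counts on a scale common to all libraries after TMM correction of their totals. The labelled cell type was set against 9 osteoblast markers. COL1A1 ran at 2463 to 2869 CPM, COL1A2 at 1112 to 1420 and SPARC at 1019 to 1177, and RUNX2 was far lower at 44.3 to 51.6. SP7 stayed at or below 0.181 CPM and IBSP had 1 read in all libraries together. Single levels of the other listed markers, ALPL, BGLAP and SPP1, are not given here. The 9 together summed to between 4751 CPM (lowest, in POG) and 5524 CPM (highest, in the positive controls). Of markers of other cells that carry integrins, PTPRC of leukocytes stayed at no more than 0.156 CPM, CD3E and the platelet gene GP9 had 0 reads, and the 4 epithelial markers together were under 1 CPM. The 4 endothelial markers were not near 0 as a list: CDH5 stayed at no more than 0.112 CPM, KDR ran from 0.258 to 1.42 and PECAM1 from 1.08 to 2.47, but TEK, an angiopoietin receptor, ran from 33.1 to 56.8 CPM. Their sum was 56.5 to 59.7 CPM in the positive controls, 42.3 to 44.1 in the negative controls, 52.8 to 59.5 in RES, 35.3 to 37.3 in POG and 38.1 to 38.6 in DEG. The positive control libraries differed from each other more than those of any other group: over the 20 subunits at 20 CPM or more, the median ratio of the higher to the lower library was 1.07 in the positive controls, against 1.01 to 1.04 for the highest to lowest library in the other groups.

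Of the 37 subunits, 29 had a mean of at least 1 CPM over all libraries and 13 a mean of at least 100 CPM. Too few reads for a test were found for 3 of them: ITGA8 had 3 reads in all libraries together, LAMB4 had 2 and ITGAD had 1. A count of 0 in a library allows up to 3 reads, which is 0.0607 to 0.0775 CPM, so values of that size rest on 3 reads or fewer. The other 34 were tested.

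Between genes, levels were compared as CPM per kilobase of exon. ITGB1, the common beta subunit, was highest at a mean of 97.5 CPM per kb, next to LAMC1, the common laminin gamma chain, at 96.3 and ITGA5, the fibronectin receptor alpha subunit, at 89.2. LAMB2 followed at 68.2 CPM per kb, ITGA3 at 50.8, LAMB3 at 37.1, ITGB5 at 33.8, LAMA5 at 30.0 and LAMB1 at 25.4. These lead the subunits of a fibronectin receptor (ITGA5 with ITGB1), a laminin receptor (ITGA3 with ITGB1) and of laminins with the LAMA5 alpha chain. With the longest transcript as the length in place of all exons, ITGB1 stood at 253 CPM per kb, ITGA5 at 132 and LAMC1 at 103. ITGA3 followed at 90.8, LAMB2 at 82.2, LAMB1 at 70.2, ITGB5 at 49.6, LAMB3 at 40.1 and LAMA5 at 37.6. The order below ITGB1 thus depends on the length used. At the other end, ITGA9, ITGAL, ITGAM, ITGB6 and ITGB7 stayed under 0.6 CPM in every library.

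**Figure D1:**
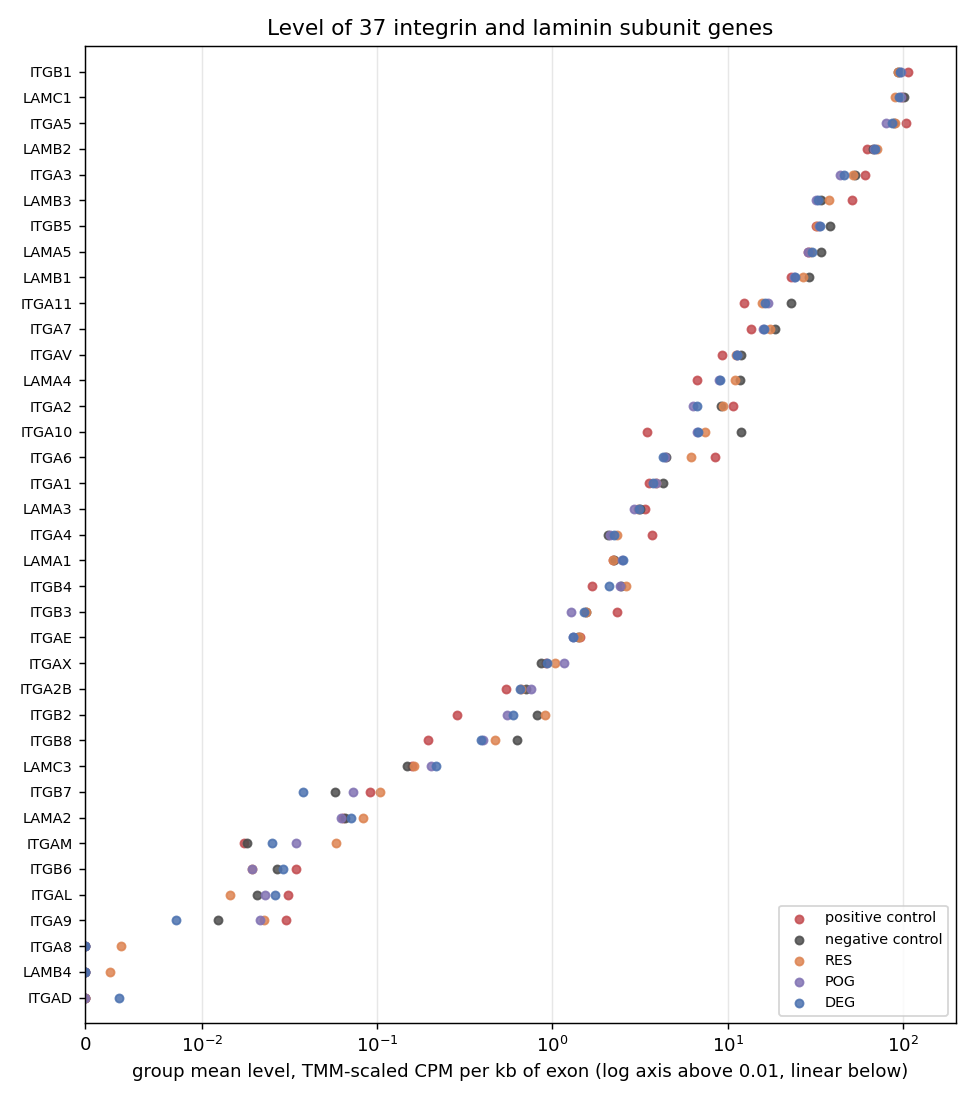
Mean level of each of the 37 subunits in the 5 groups, as CPM per kb of exon on an axis that is logarithmic above 0.01 and linear below it; each point is a group mean of 2 or 3 libraries. ITGB1, LAMC1 and ITGA5 lie near 100 CPM per kb, and groups stand visibly apart for ITGA10, ITGB2 and ITGB8.

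More subunits passed the test with serum than with any compound, as did more of all genes. Between positive and negative controls, 22 of the 34 tested subunits passed an FDR of 0.05 in the exact test of edgeR, against 42.4% of all 17092 genes tested; 8 were higher with serum (21.4% of all genes were) and 14 lower (20.9% of all genes were). The median absolute log2 fold change of the subunits was 0.35, against 0.21 over all genes. Of the called subunits, 10 changed by at least 0.5, and the share of all genes called at that size was not counted. ITGA6 (log2 fold change 0.93), ITGA4 (0.85), ITGB3 (0.58) and LAMB3 (0.57) led the higher ones, and ITGA10 (-1.78), ITGB8 (-1.69), ITGB2 (-1.53), ITGA11 (-0.90) and LAMA4 (-0.83) the lower ones.

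Among serum-starved cells, most subunits called against the negative control were lower with compound. With RES, 10 subunits were called, against 11.2% of all genes: 2 higher (4.94% of all genes) and 8 lower (6.21% of all genes). With plain library totals in place of TMM scaling, RES again had 10 calls, but 4 were higher and 6 lower. The calls over all genes shifted the same way, from 844 higher and 1062 lower to 1236 higher and 694 lower. With POG, 16 were called against 14.5% of all genes, 1 higher (5.93% of all genes) and 15 lower (8.57% of all genes). With DEG, 12 were called against 9.63% of all genes, and the 12 were all lower (6.11% of all genes were). None of the 34 was called higher with DEG in the exact test of edgeR (3.52% of all genes were), but 1, LAMA1, was with dispersions from the 2 groups alone. In either direction, 16 had an unadjusted p under 0.05 in the exact test. The share of all genes with such a p was not counted, so the 16 have no background beside them. The median log2 fold change of the subunits was -0.01 with RES, -0.10 with POG and -0.10 with DEG, against 0.00 over all genes in each, and the median absolute log2 fold changes were 0.14, 0.21 and 0.18, against 0.10, 0.11 and 0.10 over all genes.

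These 4 comparisons share the 2 negative control libraries, so that a chance deviation of those libraries enters each of them. Counted over the 4, 7 subunits were called in each (ITGA1, ITGA10, ITGA11, ITGB5, ITGB8, LAMA5 and LAMB1), 6 in 3, 3 in 2 and 8 in 1, and 10 were called in none. Those 7 were lower than the negative control each time they were called. How many of all genes tested were called as often was not counted, so these counts have no background share beside them.

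**Figure D2:**
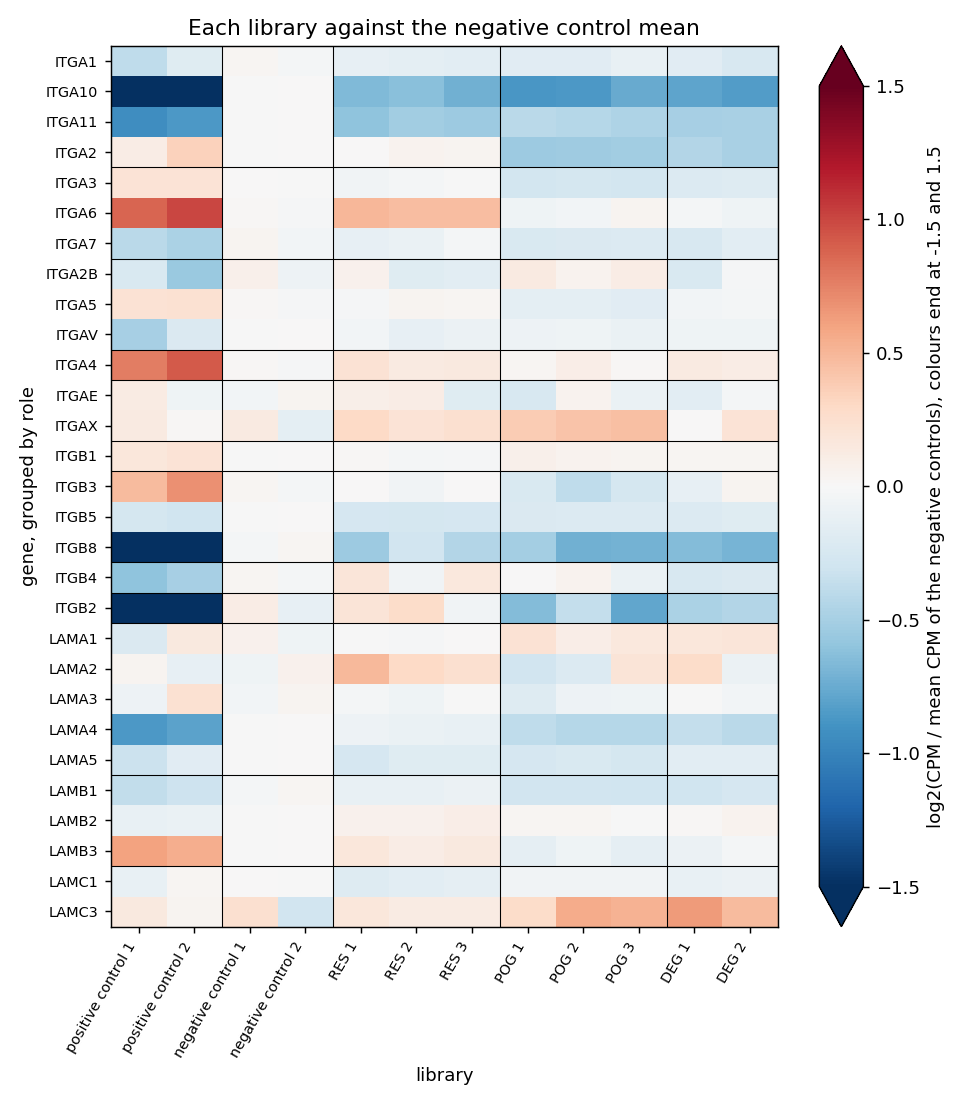
Each library of the 29 subunits at 1 CPM or more, as log2 of its CPM over the mean of the 2 negative controls; rows are subunits in order of role, columns are libraries, and colours end at -1.5 and 1.5. Libraries of a group share their colour in most rows, and ITGA10, ITGA11 and ITGB8 are blue in every library other than the negative controls.

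The compounds also differed from each other. POG against RES gave 15 called subunits against 27.9% of all genes, 4 higher with POG (13.7% of all genes) and 11 lower (14.1% of all genes). DEG against RES gave 11 against 21.2% of all genes, 1 higher (10.3% of all genes) and 10 lower (10.8% of all genes). DEG against POG gave 1, ITGA5, against 1.05% of all genes.

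**Figure D3:**
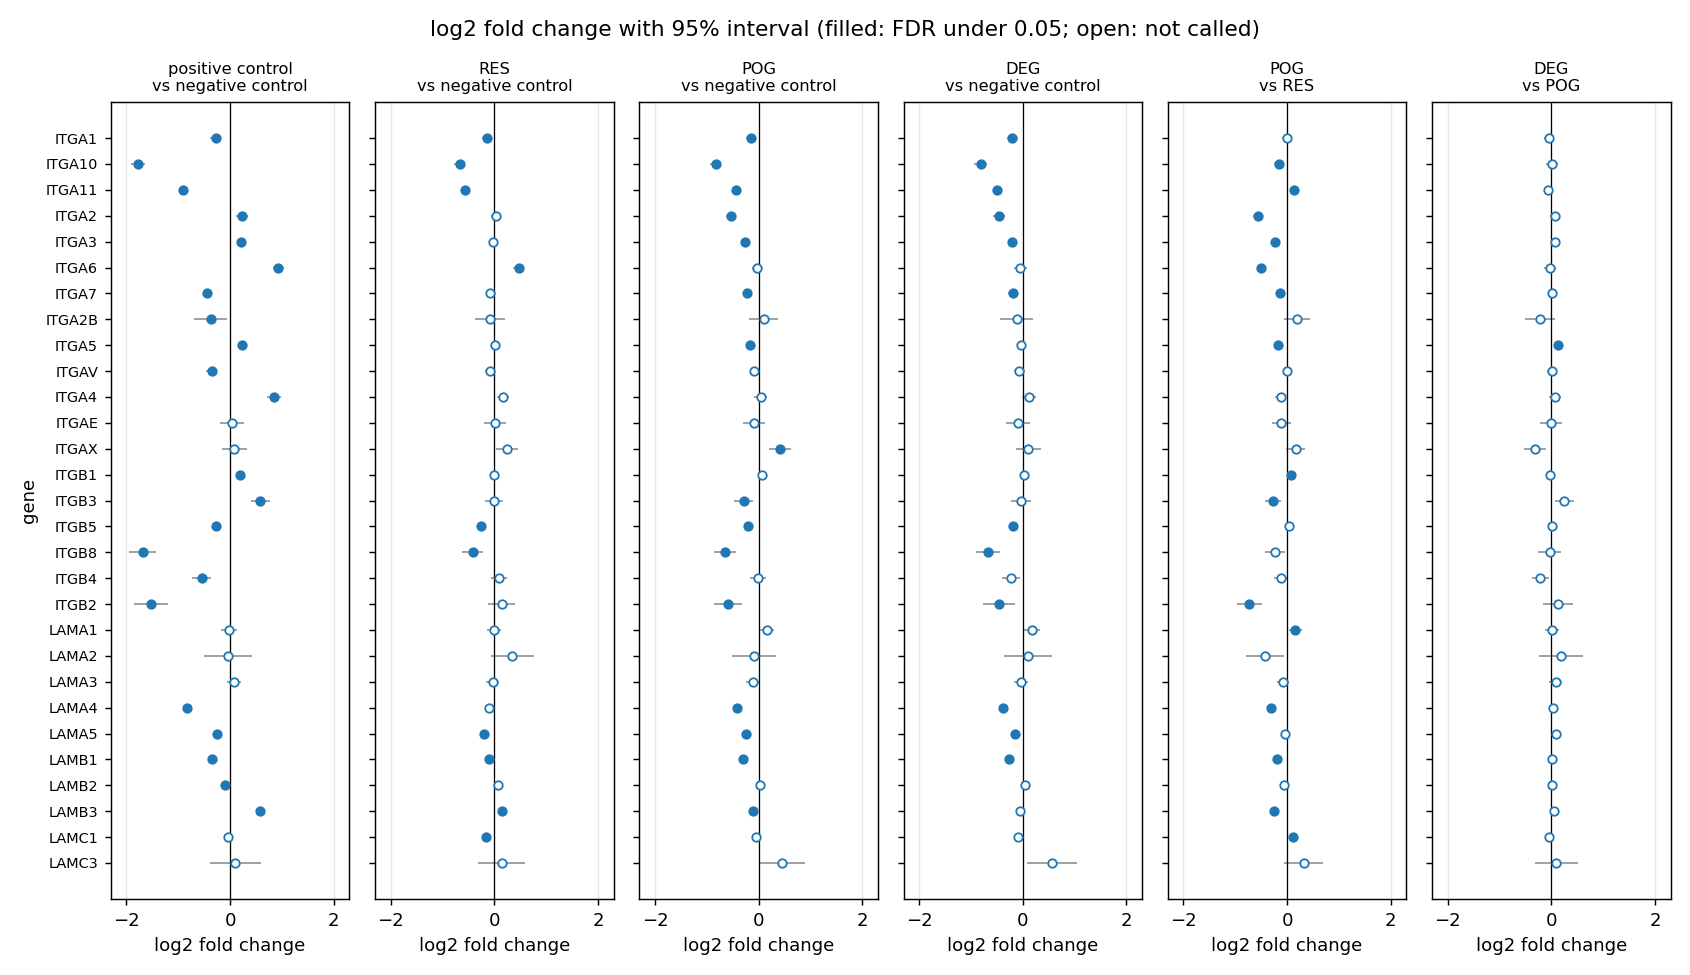
Log2 fold change of 29 subunits in 6 of the comparisons, with 95% intervals from edgeR's quasi-likelihood fit as bars; filled points passed an FDR of 0.05 in the exact test and open points did not. Points lie to both sides of 0 for serum, mostly on the left of it or at it for POG and DEG against the negative control, and near 0 for DEG against POG.

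The sequence before the start of transcription is shown for a few subunits that the comparisons turn on: 2 collagen receptor genes that were lower in every group than in the negative control, a laminin receptor gene and a laminin gene that were higher with serum and with RES, and the fibronectin receptor gene that separated DEG from POG. RefSeq promoter windows (build GRCh38.p14) were given for 26 of the 37 subunits; the 250 bases before the start were searched, and the part outside the gene as GENCODE draws it is printed, 5′ to 3′ on the gene's strand, with motif matches in capitals. The windows are chr1:145910112-145910300, minus strand, for ITGA10; chr15:68432164-68432413, minus strand, for ITGA11; chr2:172427086-172427335, plus strand, for ITGA6; chr1:209652426-209652675, minus strand, for LAMB3; and chr12:54419267-54419516, minus strand, for ITGA5.
ITGA10: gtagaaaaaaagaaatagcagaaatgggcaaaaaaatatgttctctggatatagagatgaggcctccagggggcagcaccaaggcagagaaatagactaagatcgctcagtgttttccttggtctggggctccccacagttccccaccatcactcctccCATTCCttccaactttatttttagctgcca
ITGA11: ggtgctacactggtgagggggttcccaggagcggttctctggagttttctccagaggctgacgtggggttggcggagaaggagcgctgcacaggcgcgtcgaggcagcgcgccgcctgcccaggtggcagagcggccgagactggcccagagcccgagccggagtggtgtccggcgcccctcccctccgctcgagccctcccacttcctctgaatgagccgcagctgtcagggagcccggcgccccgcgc
ITGA6: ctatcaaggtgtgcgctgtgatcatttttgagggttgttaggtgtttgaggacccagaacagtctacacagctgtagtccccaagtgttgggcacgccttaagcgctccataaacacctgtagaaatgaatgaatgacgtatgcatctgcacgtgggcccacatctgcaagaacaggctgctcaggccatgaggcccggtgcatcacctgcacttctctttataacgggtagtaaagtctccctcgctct
LAMB3: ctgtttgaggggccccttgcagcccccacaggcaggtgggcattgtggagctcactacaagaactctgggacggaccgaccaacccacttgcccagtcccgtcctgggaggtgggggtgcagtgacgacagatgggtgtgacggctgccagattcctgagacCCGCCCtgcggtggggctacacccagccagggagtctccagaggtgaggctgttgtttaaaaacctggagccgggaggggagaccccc
ITGA5: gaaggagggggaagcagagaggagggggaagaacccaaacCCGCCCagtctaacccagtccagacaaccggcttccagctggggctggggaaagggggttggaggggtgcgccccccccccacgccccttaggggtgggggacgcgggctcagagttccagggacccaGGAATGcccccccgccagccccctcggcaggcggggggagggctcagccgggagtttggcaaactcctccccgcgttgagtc
Of 4 motifs searched on both strands, with overlapping matches counted, the TEAD motif GGAATG was in the windows of ITGA10, ITGA5, ITGB1 and LAMA2, 4 of 26, while 10.1% of 15276 protein-coding promoters of the same length held it. The SP1 motif GGGCGG was in 13 of 26 windows, LAMB3 and ITGA5 among them, against 56.8% of all. The AP-1 motif TGANTCA was found in 1 member window, that of LAMA3, against 5.0% of all, and the CArG box in 1, that of ITGB6, against 1.2% of all. The windows of ITGA11 and ITGA6 held none of the 4 motifs. A match describes letters only, and no factor's binding was measured.

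Of the collagen-binding alpha subunits, ITGA10 and ITGA11 had a pattern in common: both were highest in the negative controls, lowest with serum and in between with each compound. ITGA10 (chr1:145891208-145910111, minus strand), a receptor for collagen best known from cartilage, had 19.7 and 23.7 CPM in the positive controls, 73.9 and 74.4 in the negative controls, 46.7, 47.9 and 45.1 in RES, 40.6, 40.9 and 44 in POG and 42.9 and 41.7 in DEG. The negative controls were the 2 highest libraries and the positive controls the 2 lowest, with no overlap between either of them and a compound group. Serum left ITGA10 3.42-fold lower (log2 fold change -1.78, SE 0.0623, FDR 2.99e-182), RES 1.59-fold lower (-0.67, FDR 3.92e-34), POG 1.77-fold lower (-0.83, FDR 3.58e-52) and DEG 1.76-fold lower (-0.81, FDR 6.57e-40).

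ITGA11 (chr15:68296532-68432163, minus strand), the receptor for fibrillar collagen I on mesenchymal cells, had 131 and 137 CPM in the positive controls, 249.6 and 251 in the negative controls, 165, 174 and 171 in RES, 189, 187 and 182 in POG and 178 and 178 in DEG. The 5 groups did not overlap for ITGA11, and their order ran from positive control through RES, DEG and POG to negative control. It was lower than the negative control with serum (log2 fold change -0.90, SE 0.0364, FDR 9.60e-109), RES (-0.56, FDR 6.68e-51), POG (-0.43, FDR 1.13e-30) and DEG (-0.49, FDR 4.15e-32), and POG lay above RES (0.13, FDR 8.10e-04).

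**Figure D4:**
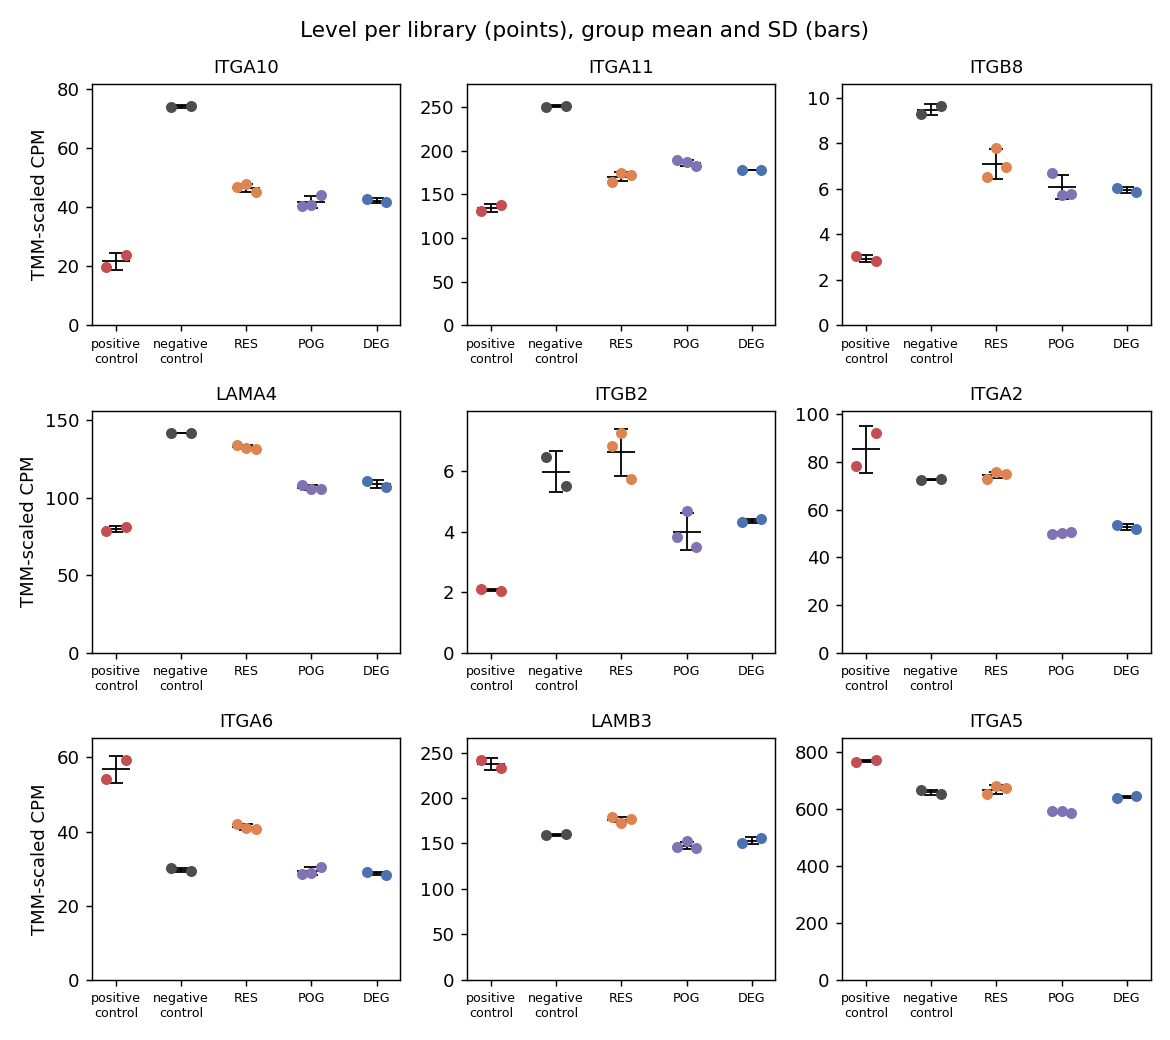
TMM-scaled CPM of 9 subunits in each library (points), with the group mean and SD (bars); each axis starts at 0. ITGA10, ITGA11, ITGB8 and LAMA4 are highest in the negative controls and lowest in the positive controls, ITGA2 is lowest in POG and DEG, ITGA5 is lowest in POG, and ITGA6 and LAMB3 are highest in the positive controls with RES next.

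ITGA2, a collagen receptor that platelets and epithelia carry too, followed another order. It had 78.3 and 92.3 CPM in the positive controls, 72.5 and 72.7 in the negative controls, 72.9, 75.6 and 74.8 in RES, 49.8, 50.2 and 50.4 in POG and 53.7 and 51.8 in DEG. The RES libraries lay within a few CPM above the negative controls, POG and DEG lay below both, and the positive controls were highest. The fall was -0.53, FDR 8.86e-23 with POG and -0.46, FDR 1.40e-13 with DEG, while RES gave 0.04, FDR 0.761 and serum 0.23, FDR 1.39e-04. ITGA2 was also lower than in RES with POG (log2 fold change -0.57, SE 0.0439, FDR 5.49e-33) and with DEG (-0.50, FDR 3.06e-19).

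ITGA1, the collagen receptor with a preference for basement membrane collagen IV, ran from 61.4 to 81.6 CPM and was called in the 4 comparisons with the negative control at small sizes: -0.27, FDR 1.87e-06 with serum, -0.14, FDR 0.0359 with RES, -0.15, FDR 0.0192 with POG and -0.20, FDR 0.00375 with DEG. The compound calls rest on single libraries. Without negative control 1 the FDR became 0.395 with RES, 0.304 with POG and 0.137 with DEG. Without negative control 2 it became 0.0861 with RES and 0.0516 with POG. Leaving out any RES library gave 0.0654 to 0.124, and POG 1, POG 2 or DEG 2 gave 0.0803, 0.0905 and 0.163. About 2.7% of ITGA1 exon lies in the same-strand gene PELO, which was higher with serum (0.38).

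The laminin-binding alpha subunits parted ways. ITGA6 (chr2:172427354-172506459, plus strand), which pairs with ITGB1 or, in hemidesmosomes, with ITGB4, had 54.2 and 59.3 CPM in the positive controls, 30.1 and 29.3 in the negative controls, 42, 40.9 and 40.7 in RES, 28.4, 28.8 and 30.5 in POG and 29.1 and 28.3 in DEG. Highest were the positive controls, the 3 RES libraries came next, POG overlapped the negative controls, and DEG lay just under them. ITGA6 was 1.91-fold higher with serum (log2 fold change 0.93, SE 0.0556, FDR 6.98e-58) and 1.39-fold higher with RES (log2 fold change 0.47, SE 0.0525, FDR 7.93e-16), and it was not called with POG (-0.02, FDR 0.895; 95% interval -0.13 to 0.09) or DEG (-0.05, FDR 0.745; 95% interval -0.17 to 0.07). Against RES it was lower with POG (-0.49, FDR 2.34e-23) and DEG (-0.52, FDR 1.65e-19). The summed endothelial list, at 42.3 to 44.1 CPM in negative controls, was likewise above them with serum (56.5 to 59.7) and with RES (52.8 to 59.5), nearly all of it TEK and with CDH5 at no more than 0.112 CPM; its part in the result was not tested.

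ITGA3, the most abundant laminin receptor alpha subunit here per kilobase, had 599.9 and 600.5 CPM in the positive controls, 524 and 517 in the negative controls, 503, 508 and 517 in RES, 431, 433 and 432 in POG and 450.2 and 455 in DEG. Positive controls were above every other library, RES and negative controls overlapped, and DEG and then POG lay below them. The differences from the negative control were 0.21, FDR 1.10e-08 with serum, -0.27, FDR 3.89e-16 with POG, -0.20, FDR 2.37e-07 with DEG and -0.03, FDR 0.620 with RES. ITGA7, the laminin receptor best known from muscle, went the other way with serum: it had 127 and 121 CPM in the positive controls, 173 and 163 in the negative controls, 154, 156 and 165 in RES, 144, 145 and 146 in POG and 143 and 150.2 in DEG. Lowest were the positive controls, and RES alone overlapped the negative controls. It fell with serum (log2 fold change -0.44, SE 0.0403, FDR 2.53e-22), POG (-0.22, FDR 2.05e-06) and DEG (-0.20, FDR 2.29e-04); the DEG call was lost without negative control 1 (FDR 0.066) or DEG 1 (FDR 0.0641).

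ITGB4, the hemidesmosome partner of ITGA6, did not move with it. It had 11 and 11.8 CPM in the positive controls, 17 and 16.3 in the negative controls, 18.8, 16 and 18.6 in RES, 16.8, 17.2 and 15.5 in POG and 14.1 and 14.3 in DEG. Positive controls were lowest and DEG next, and RES and POG overlapped the negative controls. It was lower with serum (log2 fold change -0.55, SE 0.0866, FDR 3.86e-09), and DEG lay below RES (-0.32, FDR 4.63e-04) but was not called against the negative control (-0.22, FDR 0.0868).

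Of the alpha subunits that bind RGD sequences, ITGA5, which with ITGB1 forms the main fibronectin receptor, had 764 and 772 CPM in the positive controls, 665 and 651 in the negative controls, 652, 679 and 673 in RES, 592, 592 and 585 in POG and 639 and 644 in DEG. POG was lowest, DEG lay between POG and the negative controls, and the positive controls were highest. ITGA5 rose with serum (log2 fold change 0.22, SE 0.0280, FDR 8.68e-10) and fell with POG (-0.16, FDR 1.77e-05), whereas DEG (-0.04, FDR 0.625) and RES (0.02, FDR 0.756) did not pass. ITGAV, which with several beta subunits binds vitronectin and latent TGF-beta, had 162 and 198 CPM in the positive controls, 228 and 232 in the negative controls, 223, 212 and 216 in RES, 218, 221 and 214 in POG and 219 and 221 in DEG. The positive controls lay below all other libraries but differed from each other by a ratio of 1.22. Serum lowered ITGAV (log2 fold change -0.35, SE 0.0505, FDR 9.61e-10), and no compound did by the test (log2 fold changes -0.08, -0.08 and -0.06).

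ITGA2B, the fibrinogen receptor alpha subunit of platelets, was present at 2.73 to 4.42 CPM, with 3.44 and 2.73 CPM in the positive controls, 4.24 and 3.80 in the negative controls, 4.19, 3.55 and 3.61 in RES, 4.42, 4.17 and 4.35 in POG and 3.44 and 3.97 in DEG. The positive controls were below the negative controls, and each compound group overlapped the negative controls. Its call with serum (-0.37, FDR 0.0384) was lost with the quasi-likelihood test (FDR 0.0547), with DESeq2 (0.0848), and without positive control 2 (0.404), negative control 1 (0.249) or negative control 2 (0.0544). The other platelet markers were at or near 0, with GP9 at 0 reads and GP1BA and PF4 at no more than 0.181 CPM. The summed platelet list, 3.54 to 4.53 CPM in the serum-free groups and 2.82 to 3.64 with serum, was nearly all ITGA2B.

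The beta subunits that pair with ITGAV changed in different directions. ITGB8 (chr7:20330702-20415754, plus strand), whose pair with ITGAV binds latent TGF-beta, had 3.06 and 2.82 CPM in the positive controls, 9.30 and 9.65 in the negative controls, 6.51, 7.78 and 6.98 in RES, 6.68, 5.74 and 5.79 in POG and 6.04 and 5.85 in DEG. Negative controls were highest and positive controls lowest, with the compound groups between and no overlap with either. ITGB8 was 3.22-fold lower with serum (log2 fold change -1.69, SE 0.126, FDR 2.35e-38), and lower with RES (-0.42, FDR 0.00106), POG (-0.64, FDR 2.72e-08) and DEG (-0.67, FDR 6.94e-07); leaving out negative control 2 ended the RES call (FDR 0.061).

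ITGB3, the vitronectin receptor partner that osteoclasts carry in quantity, had 14.8 and 17 CPM in the positive controls, 10.9 and 10.4 in the negative controls, 10.7, 10.3 and 10.7 in RES, 9.08, 8.19 and 8.89 in POG and 9.79 and 11 in DEG. ITGB3 was highest in the positive controls, lowest in POG, and RES and DEG overlapped the negative controls. Serum raised it (log2 fold change 0.58, SE 0.0906, FDR 2.18e-09) and POG lowered it (-0.29, FDR 0.0148), the latter not without negative control 1 (FDR 0.187), negative control 2 (0.069) or POG 2 (0.0902). Of its exon sequence, 33.2% is shared with a same-strand readthrough gene that had 0 reads. ITGB5, another vitronectin receptor subunit and the second beta subunit by level per kilobase, ran from 205 to 252 CPM and was highest in the negative controls at 251 and 252 CPM. No other library reached these. It was lower by -0.28, FDR 1.38e-13 with serum, -0.25, FDR 1.72e-12 with RES, -0.21, FDR 9.29e-09 with POG and -0.19, FDR 7.51e-06 with DEG. ITGB6, an epithelial partner of ITGAV, stayed at 0.0224 to 0.304 CPM and was called nowhere.

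ITGB1, the subunit shared by the collagen, laminin and fibronectin receptors, moved little. It had 1545 and 1579.6 CPM in the positive controls, 1367 and 1378 in the negative controls, 1387, 1345 and 1354 in RES, 1449, 1420.2 and 1415 in POG and 1405 and 1397 in DEG. The positive controls were above all others (log2 fold change 0.19, SE 0.0253, FDR 2.08e-07), and no compound group was called against the negative control, with log2 fold changes of -0.01, 0.06 and 0.03. Because ITGB1 rose with serum as ITGB5 fell, the share of ITGB1 in the summed CPM per kb of the 8 beta subunits was 74.7% ± 0.456 with serum (SD, n = 2) and 68.1% ± 0.190 in negative controls (SD, n = 2), and 71.1% to 72% on average in the compound groups. The share of ITGB5 was 22.1% ± 0.617 with serum (SD, n = 2) and 27.9% ± 0.0228 in negative controls (SD, n = 2). These shares depend on the length used. With the longest transcript as length, ITGB1 took 84.2% with serum and 79.3% in negative controls, and ITGB5 14.1% and 18.4%.

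ITGA4, which binds fibronectin and VCAM1 and is best known from leukocytes, had 37.5 and 41.8 CPM in the positive controls, 22.3 and 21.7 in the negative controls, 25.5, 24.3 and 24.5 in RES, 22.4, 23.6 and 22.2 in POG and 24.1 and 23.7 in DEG. The positive controls were above all other libraries. Serum raised ITGA4 1.80-fold (log2 fold change 0.85, SE 0.0631, FDR 2.33e-37), and the compounds did not pass (0.17 with RES, 0.05 with POG, 0.12 with DEG). The RES difference, FDR 0.0609, passed with plain totals (0.0229), with dispersions from the 2 groups alone (0.0407) and over genes at a mean of at least 1 CPM (0.0410). CERKL overlaps 26.4% of ITGA4 exon on the opposite strand and had at most 0.112 CPM. ITGA9, its closest relative, stayed at 0.0258 to 0.405 CPM; with serum it passed only without positive control 2 (FDR 0.0274).

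Of the subunits known from leukocytes, ITGB2, the common beta subunit of leukocyte integrins, showed the widest changes. It had 2.10 and 2.04 CPM in the positive controls, 6.46 and 5.51 in the negative controls, 6.84, 7.26 and 5.74 in RES, 3.82, 4.67 and 3.49 in POG and 4.31 and 4.40 in DEG. With serum ITGB2 was lowest, POG and DEG lay below the negative controls, and RES overlapped them. ITGB2 was 2.89-fold lower with serum (log2 fold change -1.53, SE 0.162, FDR 1.45e-19) and lower with POG (-0.58, FDR 3.09e-04) and DEG (-0.46, FDR 0.0293). The POG call was lost without negative control 1 (FDR 0.0722), and the DEG call without negative control 1 (0.374), DEG 1 (0.202) or DEG 2 (0.159), with the quasi-likelihood test (0.0527) and with DESeq2 (0.0697). The leukocyte marker list summed to 1.85 to 2.21 CPM in the positive controls, 1.39 to 1.66 in the negative controls, 1.41 to 1.70 in RES, 0.748 to 1.40 in POG and 1.06 to 1.42 in DEG, with PTPRC near 0 and CD3E at 0 reads throughout.

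The usual alpha partners of ITGB2 were nearly silent: ITGAL stayed at 0.0673 to 0.465 CPM and ITGAM at 0 to 0.381 CPM, and ITGAD had 1 read. ITGAX, the alpha subunit of a complement receptor, was the exception, with 6.74 and 6.19 CPM in the positive controls, 6.71 and 5.53 in the negative controls, 7.51, 7.09 and 7.22 in RES, 7.95, 8.26 and 8.35 in POG and 6.15 and 7.05 in DEG. The POG libraries were the 3 highest. It was higher with POG (log2 fold change 0.42, SE 0.104, FDR 0.00105), not without negative control 2 (FDR 0.177), and was called in no other comparison. ITGAE, the alpha subunit of intraepithelial lymphocytes, ran from 7.84 to 10.1 CPM with no call, and 6.5% of its exon is overlapped by the opposite-strand gene HASPIN at 32.4 to 39.4 CPM. ITGB7, its beta partner, stayed at 0.127 to 0.516 CPM, was called lower in DEG than in RES (-1.46, FDR 0.0221) and lost the call with the quasi-likelihood test (0.0558) and without RES 1 (0.0698), RES 2 (0.0603), DEG 1 (0.112) or DEG 2 (0.311). ZNF740, at 73.3 to 80.1 CPM on the opposite strand, overlaps 42.3% of ITGB7 exon, and whether counting used strand is not given in the sources used here.

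Among laminin alpha chains, LAMA4, the chain of vascular and mesenchymal basement membranes, changed most. It had 78.2 and 81.1 CPM in the positive controls, 142 and 142 in the negative controls, 134, 132 and 132 in RES, 109, 106 and 106 in POG and 111 and 107 in DEG. Positive controls were lowest, POG and DEG intermediate, RES just below the negative controls, with no overlap among these levels. LAMA4 was 1.78-fold lower with serum (log2 fold change -0.83, SE 0.0381, FDR 2.93e-88), and lower with POG (-0.41, FDR 1.33e-26) and DEG (-0.38, FDR 5.04e-18), while RES did not pass (-0.09, FDR 0.0737). It was lower than in RES with POG (-0.32, FDR 5.13e-20) and DEG (-0.28, FDR 1.99e-12).

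LAMA5, the most widespread laminin alpha chain of adult tissue and the leading one here, had 389 and 430.3 CPM in the positive controls, 484 and 486 in the negative controls, 408, 426 and 426 in RES, 408, 414 and 405 in POG and 436 and 435 in DEG. The negative controls were the 2 highest libraries. LAMA5 was lower with serum (-0.24, FDR 2.30e-08), RES (-0.21, FDR 1.93e-06), POG (-0.25, FDR 2.65e-09) and DEG (-0.15, FDR 0.00380); the DEG call was lost without negative control 2 (FDR 0.0762), DEG 1 (0.0688) or DEG 2 (0.0714). LAMA1, the chain of the early embryo, ran from 30.6 to 41.1 CPM, LAMA3, the epithelial chain, from 40.1 to 53.6 CPM and LAMA2, the chain of muscle, from 1.42 to 2.42 CPM; none was called against the negative control. With serum, LAMA1 passed without positive control 2 (FDR 0.00608) and LAMA3 without positive control 1 (0.000399), the 2 genes, of those at 20 CPM or more, whose positive controls differed most (ratios of 1.28 and 1.23).

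Of the laminin beta chains, LAMB3, a chain of the laminin that anchors epithelia, had 242 and 233 CPM in the positive controls, 159 and 160.1 in the negative controls, 179, 173 and 177 in RES, 146, 152 and 145 in POG and 150.2 and 156 in DEG. The positive controls were above the rest, RES came next, and POG and DEG lay below the negative controls. It was 1.49-fold higher with serum (log2 fold change 0.57, SE 0.0363, FDR 1.81e-44), higher with RES (0.14, FDR 0.00235) and lower with POG (-0.11, FDR 0.0248). Leaving out negative control 1 ended the RES call (FDR 0.0833), and the POG call was lost without either negative control (0.139 and 0.222), POG 1 (0.115) or POG 3 (0.133), and with plain totals (0.096). The endothelial sum given above was also higher with serum and RES and lower with POG (35.3 to 37.3 CPM) than in negative controls, and its part here was not tested either.

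LAMB1, a beta chain common in mesenchymal tissue, had 418 and 437 CPM in the positive controls, 532 and 551 in the negative controls, 501, 501 and 511 in RES, 443, 444 and 439.6 in POG and 441 and 456 in DEG. The negative controls were again the 2 highest libraries. It fell with serum (-0.34, FDR 1.96e-19), POG (-0.29, FDR 1.28e-16), DEG (-0.27, FDR 1.59e-11) and RES (-0.10, FDR 0.0214), the last not without negative control 1 (FDR 0.0547), negative control 2 (0.37), RES 1 (0.0886) or RES 2 (0.0891) and not with plain totals (0.128). LAMB2, the leading beta chain per kilobase, ran from 429.7 to 498 CPM and was called only with serum (-0.10, FDR 0.00963), a call lost without negative control 2 (0.119).

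LAMC1, the gamma chain found in nearly every laminin, had 791 and 873 CPM in the positive controls, 861 and 854 in the negative controls, 753, 766 and 779 in RES, 829.7, 829.8 and 826 in POG and 792 and 807 in DEG. LAMC1 was below both negative controls in every library of each compound, lowest in RES, and was not called against them with POG or DEG. It was lower with RES (-0.16, FDR 2.05e-04), and with serum it passed only without positive control 2 (FDR 0.000232). LAMC3, a gamma chain, stayed at 1.08 to 2.04 CPM with no call.

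LAMA3, a partner of LAMB3 in epithelial laminin, was not called in any comparison (log2 fold changes 0.08 with serum and -0.03 with RES). As a share of the summed CPM per kb of the beta chains, given as mean ± SD over the 2 or 3 libraries of a group, LAMB3 took 37.3% ± 0.930 with serum, 26.2% ± 0.141 in negative controls, 27.9% ± 0.431 in RES, 25.6% ± 0.465 in POG and 26.1% ± 0.161 in DEG. Among the alpha chains LAMA5 held 64.1% to 70.0% on average in the 5 groups, and LAMA4 16.3% ± 0.813 with serum against 23.1% ± 0.0173 in negative controls.

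**Figure D5:**
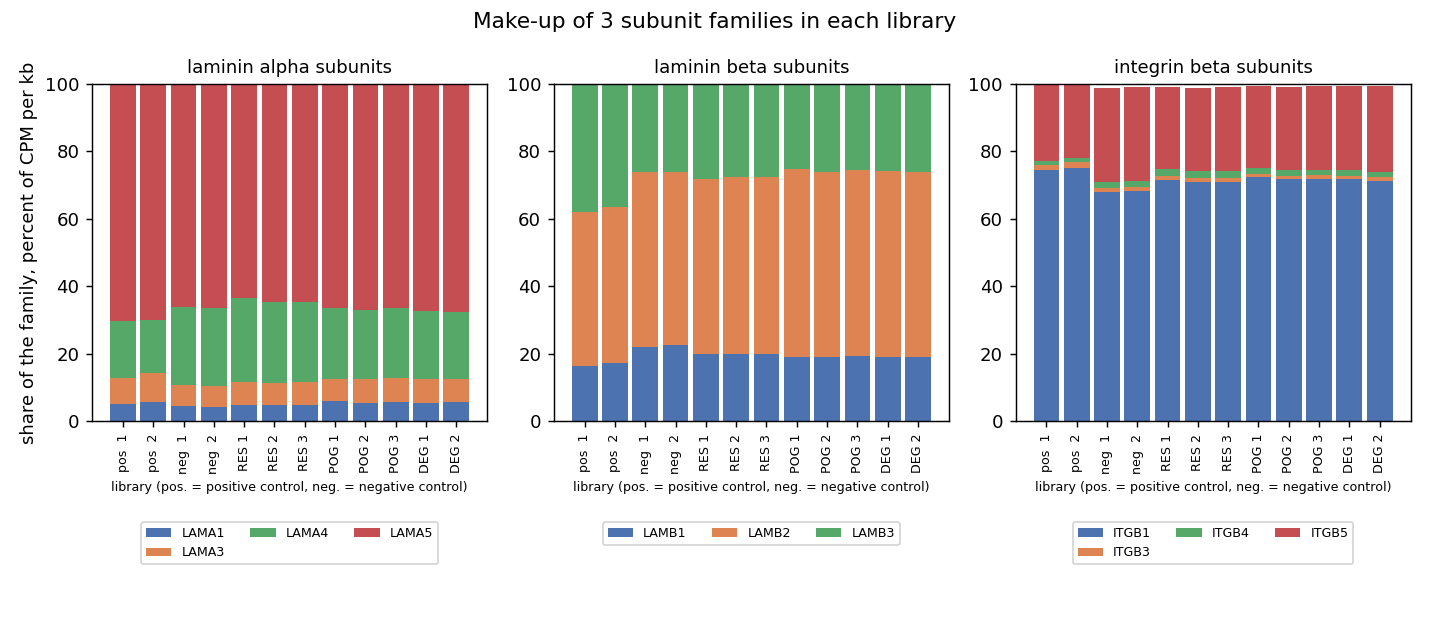
Share of each subunit in the summed CPM per kb of exon of its family, for laminin alpha, laminin beta and integrin beta subunits, with 1 bar per library; subunits with very small shares are not drawn, so bars can end just under 100%. In the positive controls LAMB3 and ITGB1 take larger shares, and LAMA4, LAMB1 and ITGB5 smaller ones, than in the negative controls.

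Set directly against RES, POG and DEG libraries had less of several integrin and laminin transcripts. POG and DEG share the RES libraries in these comparisons, so the values stand side by side. ITGB2 was lower than in RES with POG (log2 fold change -0.73, SE 0.117, FDR 1.60e-08) and with DEG (-0.60, FDR 1.41e-04). LAMB3 was lower with POG (-0.26, FDR 4.83e-13) and DEG (-0.20, FDR 1.46e-06), ITGA3 with POG (-0.24, FDR 4.40e-16) and DEG (-0.17, FDR 1.11e-06), and LAMB1 with POG (-0.19, FDR 4.58e-09) and DEG (-0.17, FDR 1.08e-05). ITGB3 (-0.28, FDR 0.00319) and ITGA5 (-0.18, FDR 4.40e-09) were lower with POG. ITGA10 was lower with POG as well (-0.15, FDR 0.00811), not without RES 2 (FDR 0.0665), POG 1 (0.0708) or POG 2 (0.0582).

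Higher with POG than RES were LAMC1 (0.11, FDR 0.00305), ITGA11, LAMA1 (0.16, FDR 0.0276) and ITGB1 (0.07, FDR 0.0469). The ITGB1 call was lost in 5 of the 6 leave-one-out fits (FDR 0.0846 to 0.209, all but without RES 1), and the LAMA1 call in 5 of them (0.0625 to 0.155, all but without POG 2). LAMA1 was also higher with DEG than RES (0.18, FDR 0.0360), a call lost when any 1 library of the pair was left out. The same call was lost with the quasi-likelihood test, with DESeq2 and with plain totals. ITGA7 was lower than in RES with POG (-0.13, FDR 0.00202, lost without RES 3 at 0.0505) and with DEG (-0.11, FDR 0.0314, lost without RES 2 at 0.0522, RES 3 at 0.202 or DEG 1 at 0.42).

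Between DEG and POG a difference was called for ITGA5 alone (log2 fold change 0.12, SE 0.0256, FDR 0.0190), and that call was lost in every leave-one-out fit (FDR 0.0871 to 0.363). For the subunits that led the other comparisons, the intervals bound the difference between DEG and POG as follows: ITGA10 0.01 (95% interval -0.10 to 0.13), ITGB8 -0.03 (95% interval -0.25 to 0.20), ITGA2 0.07 (95% interval -0.03 to 0.18) and LAMA4 0.03 (95% interval -0.04 to 0.10). In all, 6 subunits had an unadjusted p under 0.05 between these compounds, and how many of all genes did was not counted. A missed threshold does not show that the compounds act alike, and the structural relation of DEG to POG cannot be given, since the labels leave DEG unnamed.

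Genes that work with the subunits were counted as well. Of 30 adaptors and kinases of integrin adhesions, 29 were tested. With serum 22 were called (42.4% of all genes were), 17 higher and 5 lower. With RES 9 were called (11.2% of all genes), 5 higher and 4 lower, with POG 8 (14.5%) and with DEG 4 (9.63%), the POG and DEG calls all lower. FLNA, the actin crosslinker filamin A, had log2 fold changes of 0.17, FDR 1.82e-04 with serum, -0.13, FDR 0.00766 with RES, -0.31, FDR 6.71e-15 with POG and -0.20, FDR 3.96e-05 with DEG. NEDD9, a docking protein of focal adhesions, was higher with serum (0.39, FDR 3.73e-09) and RES (0.35, FDR 1.19e-07), lower with POG (-0.34, FDR 3.14e-07), and lower with POG than with RES (-0.69, FDR 2.57e-39). POG against RES had 15 of the 29 called (27.9% of all genes), 14 of them lower with POG, and DEG against RES had 10 (21.2% of all genes), 9 of them lower with DEG.

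Of 19 integrin ligands other than collagens and laminins, 14 were tested. With serum 7 were higher (21.4% of all genes were) and 2 lower (20.9%). With RES 1 was higher (4.94%) and 4 lower (6.21%), with POG 1 higher (5.93%) and 8 lower (8.57%), and with DEG 1 higher (3.52%) and 6 lower (6.11%). THBS1, the matrix protein thrombospondin, was higher with serum (0.43, FDR 3.90e-21) and lower with RES (-0.38, FDR 8.19e-18), POG (-0.94, FDR 1.02e-110) and DEG (-0.71, FDR 3.78e-50). FN1, the fibronectin that ITGA5 binds, was higher with serum (0.12, FDR 0.0170) and lower with RES (-0.27, FDR 4.30e-10) and POG (-0.22, FDR 4.16e-07). The 1 ligand higher in each compound group was ICAM1, a ligand of leukocyte integrins (0.18, FDR 2.44e-06 with RES, 0.15, FDR 1.17e-04 with POG and 0.16, FDR 2.39e-04 with DEG).

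Of 16 laminin partners and other laminin receptors, 14 were tested. With serum 6 were higher and 7 lower, against 21.4% and 20.9% of all genes. With RES 2 were higher and 6 lower, against 4.94% and 6.21%. The POG calls were 5, all lower (8.57% of all genes), and the DEG calls 4, all lower (6.11%). NID2, a nidogen that links laminin to collagen IV, was lower with serum (-0.62, FDR 1.18e-42), RES (-0.49, FDR 3.26e-31), POG (-0.42, FDR 3.64e-24) and DEG (-0.36, FDR 1.21e-13). The laminin receptor BCAM was higher with serum (0.37, FDR 2.48e-15) and RES (0.14, FDR 0.00806), and so was the syndecan SDC4 (0.43, FDR 2.46e-24 and 0.24, FDR 3.60e-08). Between DEG and POG, where 1.05% of all genes were called, the calls were NEDD9 among adaptors, CCN1, CCN2, TGFBI and THBS1 among ligands and NTN4 among laminin partners, each higher with DEG.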

How the data were processed

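Messenger RNA libraries of hFOB cells (polyA selection, Universal Plus mRNA-Seq kit) were sequenced as read pairs on a NovaSeq. The authors deposited raw read counts per gene, not normalized, in 1 table of 43836 genes and 12 libraries. Per their methods, reads were checked with FastQC, aligned to hg38 with STAR (BWA MEM was named too) and counted with featureCounts; program versions, annotation release, strand setting and handling of multi-mapped reads are not given in the sources used here. Genes that overlap on opposite strands therefore carry uncertain counts. The labels name 13 samples; 1 of them, named DEG replicate 3 here, is without a column and was left out. The labels number no replicates; the numbers used here follow sample order and are names only.

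Differential expression was computed from the counts with the exact test of edgeR 4.0.16 in R 4.3.3, the test the authors name: TMM scaling, genes kept by filterByExpr (17092, holding 99.962% to 99.969% of each library's reads), dispersions over all 12 libraries (common biological coefficient of variation 3.21%), and Benjamini-Hochberg adjustment over all genes tested, with calls at an FDR under 0.05. Every FDR in the text is such an adjusted p unless another tool is named. Standard errors and 95% intervals came from edgeR's quasi-likelihood fit, a different fit from the exact test. A fold change is the first group over the second. In bulk RNA, fewer cells of a type and less RNA per cell cannot be told apart. Floors take in counting error alone, because PCR copies of a molecule were counted as separate reads.

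Members were the protein-coding symbols ITGA, ITGB and LAM followed by a subunit number or letter; of the 38 such genes, 1 is not reported here and enters no count of subunits, though it stayed in the fit across all genes. Values in every library were given for subunits called in at least 1 comparison with an absolute log2 fold change of at least 0.3 and a mean of at least 1 CPM (16 subunits), plus ITGA3, ITGA5, ITGB1, LAMA5 and LAMC1, which lead their roles in level and were added after their values were seen. The members, role groups, gene lists and markers were chosen with earlier results of these data known. Lengths and gene coordinates are from GENCODE release 44 (hg38), promoters from RefSeq (GRCh38.p14). Symbols matched 43177 identifiers.

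The test was checked on simulated counts for 17092 genes with 200 changed by a log2 fold change of 1: it recovered 165 for positive against negative control (19 unchanged genes called) and 172 for RES against negative control (16 called). Alternatives comprised the quasi-likelihood test, DESeq2 1.42.0, its size factors in the exact test, plain totals, no filter, a mean CPM of at least 1, dispersions from the compared groups, an FDR of 0.01, the longest transcript as length, and each library left out. A search for protein motifs was planned and not run, as no protein sequences were used here.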

Additional observations from a re-analysis of the deposited data

How the results depend on the processing

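The counts of called subunits stayed within 1.5 times the reported value in all alternatives other than those named next. With dispersions from the 2 compared groups alone, RES against negative control had 16 called subunits in place of 10, and DEG against POG had 4 in place of 1. Calls over all genes rose there too. They went from 844 higher and 1062 lower to 1199 and 1515 for RES, and from 94 and 85 to 495 and 343 for DEG against POG. With any 1 library left out, calls over all genes fell for RES, POG and DEG against negative control. DEG against POG had 0 with no filter on low counts, 0 at an FDR under 0.01, and 0 when any 1 POG library was left out. By the exact test of edgeR, 6 subunits had an unadjusted p under 0.05 there, with no share of all genes counted beside them. With 1 library left out, the counts ran from 20 to 24 for positive against negative control, 7 to 9 for RES, 12 to 15 for POG and 9 to 11 for DEG against negative control, 12 to 15 for POG against RES and 8 to 10 for DEG against RES; the lone library left in a group of 2 is then assumed to vary like the other groups.

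No log2 fold change of a called subunit among the 16 changed sign under any alternative run. Over those subunits and the 7 comparisons, the quasi-likelihood test kept 110 calls or non-calls and lost 2 calls, DESeq2 did the same, and dispersions from the compared groups gained 8 and lost 1. Leaving out either negative control lost more calls than leaving out any other library. The negative controls also enter more of the comparisons than any other group, and 1 of them was then left. With the longest transcript as length, LAMB1 rather than LAMB3 was the second laminin beta chain, with 40.4% in the negative controls against 18.6% for LAMB3. No paired analysis was possible because the labels number no replicates; the numbers used here only follow the order of the samples. Depth limits the subunits under 1 CPM, for which counts of a few reads decide each value; the cause of the changed calls was not tested.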
